A study of Mus musculus with 8 samples.

Results

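Gfi1, Gfi1b, Id1, Id2 and Id3 encode nuclear proteins that hold down transcription in blood cells. They were followed in leukemic spleens of mice with a truncated or a full-length CBFb-SMMHC fusion. All probe sets that the platform annotation assigns to 1 of these 5 gene symbols were taken, which gave 7 of the 45101 probe sets of the deposited table. Id2 had 3 probe sets and each of the other genes had 1. The members were chosen with earlier results of these data known.

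GFI1 and GFI1B are zinc finger repressors that recruit the demethylase LSD1 (encoded by Kdm1a) and CoREST (Rcor1) through a short domain at their N-terminal end. In mice, Gfi1 is needed for neutrophil formation and Gfi1b for red cell and platelet formation, and each protein can repress its own gene and that of the other. The ID proteins have a helix-loop-helix domain without a DNA-binding region, so they capture E proteins (Tcf3, Tcf4, Tcf12) and keep them off DNA. Id1 is a classic target of BMP signalling, Id2 is needed for natural killer cells and innate lymphoid cells, and Id3 acts mainly in lymphocytes.

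Truncated mice expressed CBFb-SMMHCd179-221, a truncated fusion that the series title calls defective in high-affinity RUNX1 binding, and their spleens were taken at 3 weeks of age. Full-length mice carried CBFb-SMMHC and were leukemic 2 months after the mutagen ENU. Both groups carried a CBFb-SMMHC fusion and both were leukemic, and the series text calls the full-length mice knock-in, while the labels of the arrays have chimera for either group. No normal spleen is among the samples, and fusion form, age and ENU cannot be told apart. Each genotype had 4 Affymetrix arrays of total spleen cell RNA, 1 of animal 1 and 3 of animal 2.

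Array medians ranged from 4.71 to 4.78 on the log2 scale. The arrays did not group as their animal labels would have them. Over all probe sets, array 1 of truncated animal 2 correlated with the array of truncated animal 1 at r = 0.987 and with arrays 2 and 3 of its own animal at r = 0.976 each. In the full-length mice the same comparison gave r = 0.989 with the other animal, and 0.954 and 0.953 within animal 2. Arrays 2 and 3 of animal 2 correlated at r = 0.997 in either genotype. The difference of each member probe set is therefore also given separately for the arrays numbered 1 (both animals) and for arrays 2 and 3 of animal 2. Differences of list genes and list medians are not given by set. Some are given without the 2 full-length arrays numbered 1, a setting that is not matched by set.

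Gfi1 was the member with the largest difference, at a mean of 6.67 in truncated and 3.92 in full-length animals on the log2 scale, while Gfi1b, its close relative, had a slightly lower mean in truncated animals. Id2 was higher by about a log2 unit and Id1 by less. Id3 was dim in both genotypes. No member passed limma after adjustment over all genes tested.

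**Figure D1:**
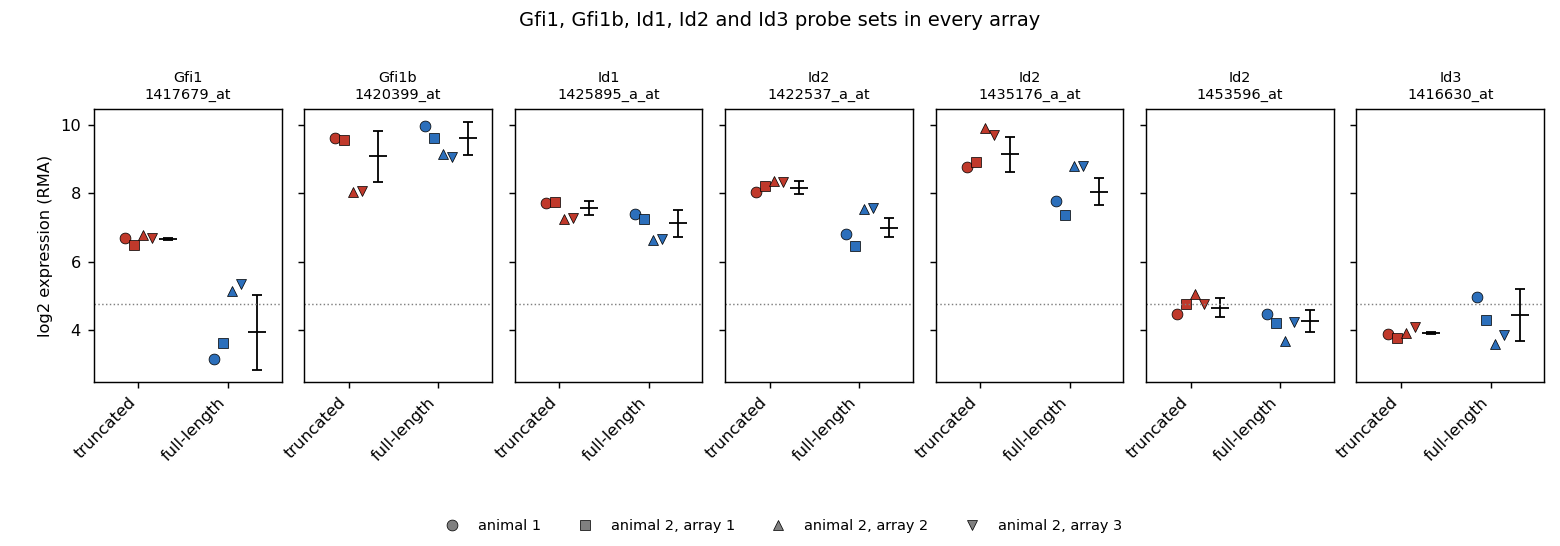
Log2 expression (RMA) of the 7 probe sets in every array, with truncated mice at the left of each panel and full-length mice at the right. Symbols name the animal and array, black bars give the mean ± SD of the 2 animals, and the dotted line at 4.75 is the median over all values. The 4 truncated arrays lay above the 4 full-length arrays for Gfi1 and for Id2 probe set 1422537_a_at, while the genotypes overlapped for the other probe sets.

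Gfi1 (probe set 1417679_at) lay at 6.69 in the array of truncated animal 1 and at 6.49, 6.78 and 6.68 in arrays 1 to 3 of truncated animal 2. It lay at 3.15 in the array of full-length animal 1 and at 3.62, 5.13 and 5.34 in arrays 1 to 3 of full-length animal 2. The truncated arrays lay close together and above all full-length arrays, as 10.3% of all genes tested did, and the full-length arrays were split, with arrays 2 and 3 of animal 2 above the other two. The animal means were 6.67 ± 0.03 in truncated and 3.92 ± 1.10 in full-length mice (log2, SD, n = 2 animals each). The difference was 2.75, or 6.71-fold, with a 95% interval of 1.42 to 4.08 in limma (adjusted p = 0.113 over 11417 genes, unadjusted p = 0.00292). Of all genes tested, 1.79% were higher by 2 log2 units or more, and 0.578% were higher by more than Gfi1. Gfi1 was kept by the filter on dim genes only through the truncated animals, since neither full-length animal mean (3.15 and 4.70) was above 4.75. The table has no detection calls, so whether Gfi1 was above background in full-length mice is not known, and the fold, the interval and the rank describe the measured values and not the true size of the difference. The p-values and calls of Gfi1, here and below, rest on the same values and are descriptions only. With no filter on dim genes its adjusted p was 0.176 (limma).

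Within the arrays numbered 1 the Gfi1 difference was 3.20, and within arrays 2 and 3 of animal 2 it was 1.49. It thus had the same direction in both sets of arrays, and its size differed because the full-length arrays differed, by 1.85 between the sets, against 0.14 between the sets in truncated mice. Without the 2 full-length arrays numbered 1, which were also the arrays highest in erythroid genes, the difference was 1.43. Here and below, this setting leaves 1 full-length animal, with its arrays 2 and 3 only. They are set against truncated arrays of both sets, so the comparison is not matched by set. Without full-length animal 2 the difference was 3.52. That fit leaves out 3 arrays and keeps 1 full-length animal. Its spread came from the truncated animals alone, so it cannot test the genotypes. The call depended on single arrays: Gfi1 passed without array 2 of full-length animal 2 (2.86, limma, adjusted p = 0.0396) or without its array 3 (2.91, adjusted p = 0.0241). In these fits 5.75%, 2.88% and 3.71% of all genes passed.

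Neutrophil granule genes, among which Gfi1 is known to act, were also higher in truncated mice. The secondary and tertiary granule list had 14 tested genes, of which 14 had a higher mean (48.5% of all genes tested did). The median of their differences was 2.59, against -0.01 over all genes tested. The median log2 level over the list's genes on the array ranged from 11.26 to 11.46 in truncated and from 7.35 to 9.55 in full-length arrays, and the lower 2 full-length arrays were those lowest in Gfi1. The 11 tested primary granule genes all had higher means as well, by 2.85 at the median, with list levels from 9.36 to 11.29 in truncated and from 4.86 to 9.49 in full-length arrays. Without the 2 full-length arrays named above the median differences were 1.49 and 0.87. In whole spleen cells, fewer cells of a type and less RNA per cell cannot be told apart, and the part of the granule-bearing cells in the Gfi1 result was not tested.

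Gfi1b (1420399_at) lay at 9.62 in the array of truncated animal 1 and at 9.57, 8.03 and 8.07 in arrays 1 to 3 of truncated animal 2. In full-length mice it lay at 9.97 in animal 1 and at 9.62, 9.14 and 9.07 in arrays 1 to 3 of animal 2. The genotypes overlapped, since the arrays numbered 1 were all between 9.57 and 9.97, and arrays 2 and 3 of truncated animal 2 lay below every other array. The animal means were 9.09 ± 0.75 in truncated and 9.62 ± 0.49 in full-length mice (SD, n = 2 each), a difference of -0.53 with a 95% interval of -1.66 to 0.59 (limma, adjusted p = 0.698). Of all genes tested, 12.9% were lower by 0.5 log2 units or more. The Gfi1b difference was -0.20 within the arrays numbered 1 and -1.06 within arrays 2 and 3 of animal 2. It was -0.01 with truncated animal 2 left out, and -0.02 when the 2 full-length arrays highest in erythroid genes were left out.

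Erythroid genes, which mark the lineage that needs Gfi1b, split the arrays in a similar way within each genotype, but not between the genotypes. The median log2 level of the erythroid list was 9.15 and 9.45 in the truncated arrays numbered 1, and 8.31 and 8.35 in arrays 2 and 3 of truncated animal 2. It was 10.46 and 10.24 in the full-length arrays numbered 1, and 8.11 and 8.15 in arrays 2 and 3 of full-length animal 2. In both genotypes the arrays numbered 1 were thus higher in erythroid genes and in Gfi1b than arrays 2 and 3, where Gfi1b was lower by 1.54 in truncated and by 0.69 in full-length mice. Between the genotypes, within arrays 2 and 3, the list was slightly higher in truncated mice while Gfi1b differed by -1.06. Within the arrays numbered 1 the list was lower in truncated mice, and Gfi1b differed by -0.20. Of the 16 tested erythroid genes 15 had a lower value in truncated animals, with a median difference of -0.85. It became 0.46 without the 2 full-length arrays numbered 1, a setting that keeps the truncated arrays numbered 1, which were also high in erythroid genes. Of the 10 tested megakaryocyte genes 8 had higher means, by 0.54 at the median, which became -0.30. The part of red cell precursors in the Gfi1b values was not tested.

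**Figure D2:**
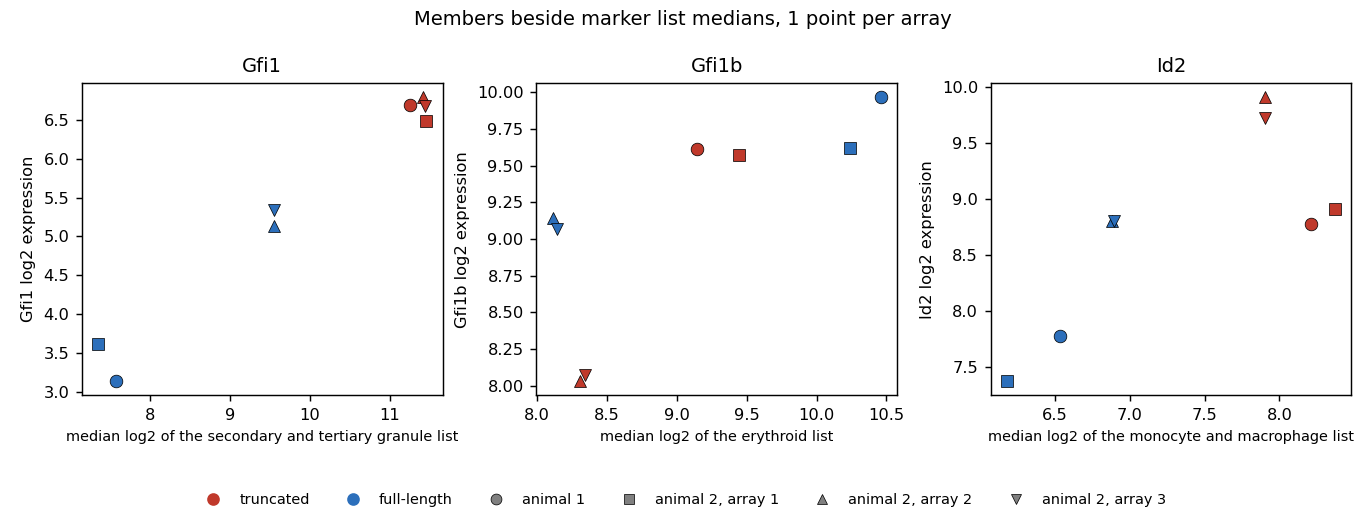
Log2 expression of Gfi1, Gfi1b (probe set 1420399_at) and Id2 (1435176_a_at) on the vertical axes against the median log2 level of a marker list on the horizontal axes, with 1 point per array. Gfi1 and the granule list were lowest in the 2 full-length arrays numbered 1. Gfi1b and the erythroid list were higher in the arrays numbered 1 than in arrays 2 and 3. Within arrays 2 and 3, Gfi1b was lower and the erythroid list slightly higher in truncated than in full-length mice. Id2 lay highest in arrays 2 and 3 of truncated animal 2, where the monocyte and macrophage list was lower than in the truncated arrays numbered 1. In full-length mice Id2 and that list were both higher in arrays 2 and 3 than in the arrays numbered 1. Which list is drawn beside which gene was chosen after the values were seen.

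The balance of the GFI pair was compared within arrays, as the Gfi1 value minus the Gfi1b value, of which only the change between genotypes can be read. Gfi1 was dim in full-length mice and Gfi1b bright in both, and RMA shrinks differences of dim probe sets, so the size of that change depends on the signal of the probe sets. It was -2.92 in truncated animal 1 and -1.91 in truncated animal 2, against -6.82 in full-length animal 1 and -4.58 in full-length animal 2. The balance shifted towards Gfi1 by 3.28 log2 units in truncated mice. Most of this shift was the Gfi1 difference of 2.75 given above, as Gfi1b differed by -0.53, so it adds no separate support. No array of the genotypes overlapped, with truncated arrays from -3.09 to -1.25 and full-length arrays from -6.82 to -3.72. How many other gene pairs do not overlap was not computed. An exact permutation test of 2 animals against 2 gave p = 0.333 (two-sided), the smallest it allows. Without the 2 full-length arrays highest in erythroid genes the shift was 1.45.

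The sequences upstream of the GFI genes and of Id2 are shown because these genes differed most or are known to regulate each other. They are the 250 bases before each start in the RefSeq promoters of GRCm38.p6, which cover 4 of the 5 genes (not Id1) and give Gfi1 in 2 starts. Capitals mark matches on either strand to AAATCA (the core that GFI proteins bind), GATAA (GATA factors), CANNTG (the E-box of E proteins) and TGNGGT (RUNX proteins). The first lies on the minus strand at chr2:28621983-28622232, the Gfi1 starts on the minus strand at chr5:107725806-107726055 and chr5:107724344-107724593, and Id2 on the minus strand at chr12:25096093-25096342.
Gfi1b: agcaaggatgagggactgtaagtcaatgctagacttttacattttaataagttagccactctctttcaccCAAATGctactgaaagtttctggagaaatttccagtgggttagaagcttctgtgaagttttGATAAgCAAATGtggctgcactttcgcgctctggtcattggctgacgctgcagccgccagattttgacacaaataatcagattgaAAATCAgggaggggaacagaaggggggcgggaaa
Gfi1, upstream start: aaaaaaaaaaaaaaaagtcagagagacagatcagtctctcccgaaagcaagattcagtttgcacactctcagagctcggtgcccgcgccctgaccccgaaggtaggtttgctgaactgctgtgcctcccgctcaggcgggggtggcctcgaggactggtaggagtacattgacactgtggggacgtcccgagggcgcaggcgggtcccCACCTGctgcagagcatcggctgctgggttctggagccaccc
Gfi1, downstream start: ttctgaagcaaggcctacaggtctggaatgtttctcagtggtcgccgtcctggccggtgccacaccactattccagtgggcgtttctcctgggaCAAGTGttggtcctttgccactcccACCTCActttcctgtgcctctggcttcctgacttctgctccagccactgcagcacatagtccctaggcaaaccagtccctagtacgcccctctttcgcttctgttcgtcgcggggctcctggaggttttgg
Id2: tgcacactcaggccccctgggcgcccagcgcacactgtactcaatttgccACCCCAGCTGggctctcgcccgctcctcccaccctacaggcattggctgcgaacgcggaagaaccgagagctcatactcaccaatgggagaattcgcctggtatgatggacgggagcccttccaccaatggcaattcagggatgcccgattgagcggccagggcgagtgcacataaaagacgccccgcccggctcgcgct

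The Gfi1b window held AAATCA at 34 to 29 bases before the start and GATAA at 119 to 115 bases before it, along with 2 E-boxes. Among all 32851 promoter windows of this length, 12.4% held AAATCA and 22.6% held GATAA. Neither Gfi1 window held these letters. The upstream Gfi1 window had an E-box, which 66.2% of all windows have. The downstream Gfi1 window had an E-box and a TGNGGT match on the opposite strand (written ACCTCA), and Id2 had both in overlap (ACCCCAGCTG), where 40.1% of all windows hold TGNGGT. These matches are descriptions of the letters only, and binding was not measured.

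Id2 was read by 3 probe sets. The brightest, 1435176_a_at, lay at 8.78 in truncated animal 1 and at 8.91, 9.91 and 9.72 in arrays 1 to 3 of truncated animal 2. In full-length mice it lay at 7.78 in animal 1 and at 7.38, 8.80 and 8.80 in arrays 1 to 3 of animal 2. The lowest truncated array and the highest full-length arrays met, so the genotypes overlapped. Within each set of arrays the truncated ones were higher, but the share of all genes for which this holds was not computed. The animal means were 9.15 ± 0.52 in truncated and 8.05 ± 0.39 in full-length mice (SD, n = 2 each), a difference of 1.09 or 2.13-fold, with a 95% interval of 0.20 to 1.99 (limma, adjusted p = 0.271, unadjusted p = 0.0254). Of all genes tested, 6.95% were higher by 1 log2 unit or more.

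Probe set 1422537_a_at of Id2 gave a like difference with less spread. It lay between 8.05 and 8.37 in truncated arrays and between 6.46 and 7.58 in full-length arrays, with no overlap, where 10.3% of all genes tested were higher without overlap. Its animal means were 8.05 and 8.30 in truncated and 6.80 and 7.20 in full-length mice, 1.18 apart (limma on all probe sets kept, adjusted p = 0.173). The dim probe set 1453596_at lay between 4.45 and 5.05 in truncated and between 3.68 and 4.48 in full-length arrays, with a difference of 0.40, and was not kept by the filter. All 3 probe sets thus had a higher mean in truncated mice, by amounts that differed.

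The Id2 difference was present in both sets of arrays. By 1435176_a_at it was 1.27 within the arrays numbered 1 and 1.01 within arrays 2 and 3 of animal 2, and by 1422537_a_at it was 1.50 and 0.78. It was smaller, at 0.34 (limma, adjusted p = 0.791), without the 2 full-length arrays highest in erythroid genes, since both truncated animals are then set against full-length arrays 2 and 3, which were high in Id2. Monocytes and macrophages, in which Id2 is also expressed, had 17 of 17 tested marker genes with a higher value in truncated mice. Their median difference was 1.49 and their list level lay between 7.90 and 8.37 in truncated and between 6.18 and 6.89 in full-length arrays. Within truncated mice the list and Id2 went opposite ways, and within full-length mice they went the same way. In truncated mice the list was at 8.21 and 8.37 in the arrays numbered 1, and at 7.91 and 7.90 in arrays 2 and 3, where Id2 was highest. In full-length mice it was at 6.53 and 6.18 in the arrays numbered 1, and at 6.88 and 6.89 in arrays 2 and 3, where Id2 was also higher. The part of monocytes and macrophages in the Id2 values was not tested. Genes of T and NK cells, which also use Id2, had list levels between 4.44 and 5.10 in truncated and between 4.61 and 5.02 in full-length arrays, and 3 of 8 tested had a higher mean. Dendritic cell genes, a lineage in which Id2 is needed for some subsets, had 5 of 7 tested members with a higher mean, by 0.23 at the median. Their list level, over the genes on the array, lay between 5.41 and 6.38 in truncated and between 5.04 and 5.19 in full-length arrays. It was highest in arrays 2 and 3 of truncated animal 2, at 6.06 and 6.38. The part of dendritic cells in the Id2 values was not tested.

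Id1 (1425895_a_at) lay at 7.72 in truncated animal 1 and at 7.75, 7.24 and 7.28 in arrays 1 to 3 of truncated animal 2. In full-length mice it lay at 7.40 in animal 1 and at 7.24, 6.64 and 6.65 in arrays 1 to 3 of animal 2. The genotypes overlapped. Within either set of arrays every truncated array was higher than every full-length array. Each set compares only 2 arrays with 2, and the share of all genes that separate in this way was not computed. The animal means were 7.57 ± 0.21 in truncated and 7.12 ± 0.39 in full-length mice (SD, n = 2 each), a difference of 0.45 with a 95% interval of -0.28 to 1.18 (limma, adjusted p = 0.591). It was 0.42 within the arrays numbered 1 and 0.61 within arrays 2 and 3 of animal 2. In contrast to Gfi1 and Id2, Id1 was lower in arrays 2 and 3 than in the arrays numbered 1, by 0.48 in truncated and by 0.67 in full-length mice, so its difference was 0.92 without the 2 full-length arrays numbered 1. Endothelial and stromal genes, whose cells express Id1, had 3 of 8 tested members with a higher value and list levels between 4.39 and 4.70 in truncated and between 4.15 and 4.48 in full-length arrays.

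Id3 (1416630_at) was dim. It lay at 3.88 in truncated animal 1 and at 3.77, 3.91 and 4.07 in arrays 1 to 3 of truncated animal 2, against 4.96 in full-length animal 1 and 4.29, 3.57 and 3.84 in arrays 1 to 3 of full-length animal 2. Only the array of full-length animal 1 was above 4.75, so the gene was not kept by the filter, and with no detection calls in the table a low value does not show absence. The animal means were 3.90 ± 0.03 in truncated and 4.43 ± 0.75 in full-length mice, -0.53 apart (limma without the filter, adjusted p = 0.742). The direction turned between the sets, at -0.80 within the arrays numbered 1 and 0.28 within arrays 2 and 3 of animal 2. B cell genes, a lineage in which Id3 acts, were also dim, with list levels between 4.44 and 5.72 in truncated and between 4.29 and 4.62 in full-length arrays.

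**Figure D3:**
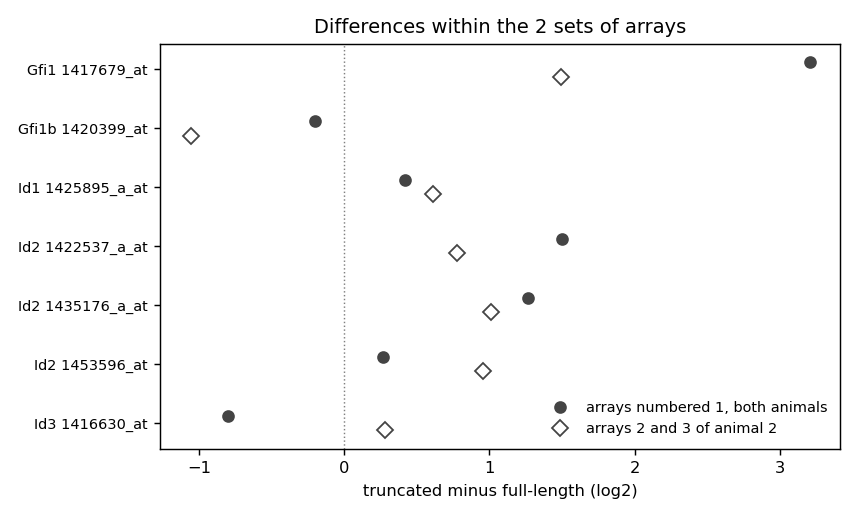
Truncated minus full-length difference (log2) of each probe set within the arrays numbered 1 of both animals (filled circles) and within arrays 2 and 3 of animal 2 (open diamonds). All probe sets except that of Id3 had the same direction in both sets, and Gfi1 was at 3.20 and 1.49.

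Across the 4 members that were tested, limma called none after adjustment, as it called 0 of 11417 genes in either direction (0%). At an unadjusted p under 0.05, Gfi1 and Id2 were higher, where 8.8% of all genes were higher and 5.3% lower at that threshold. Gfi1 was kept by the filter only through the truncated animals, so its p-values and calls in this paragraph are descriptions only. The block of animal and array number over the 8 arrays gave other calls. In that fit 3 members passed, Gfi1 with 2.35 (limma, adjusted p = 0.0350), Id2 with 1.14 (adjusted p = 0.0168) and Id1 with 0.51 (adjusted p = 0.0484), where 8.28% of all genes passed. It counts arrays of an animal as separate samples, so its p-values are too small. With the animal number as a block on the animal means, Gfi1 had an adjusted p of 0.0559 in limma and Id2 one of 0.0905. The fit on the arrays numbered 1 alone called Gfi1 (3.20, limma, adjusted p = 1.66e-10) and Id2 (1.27, adjusted p = 0.000112), but it called 26.4% of all genes, as these arrays of the 2 animals were alike. The labels give the arrays numbered 1 to different animals, and do not say whether the 3 arrays of animal 2 were separate cell preparations.

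**Figure D4:**
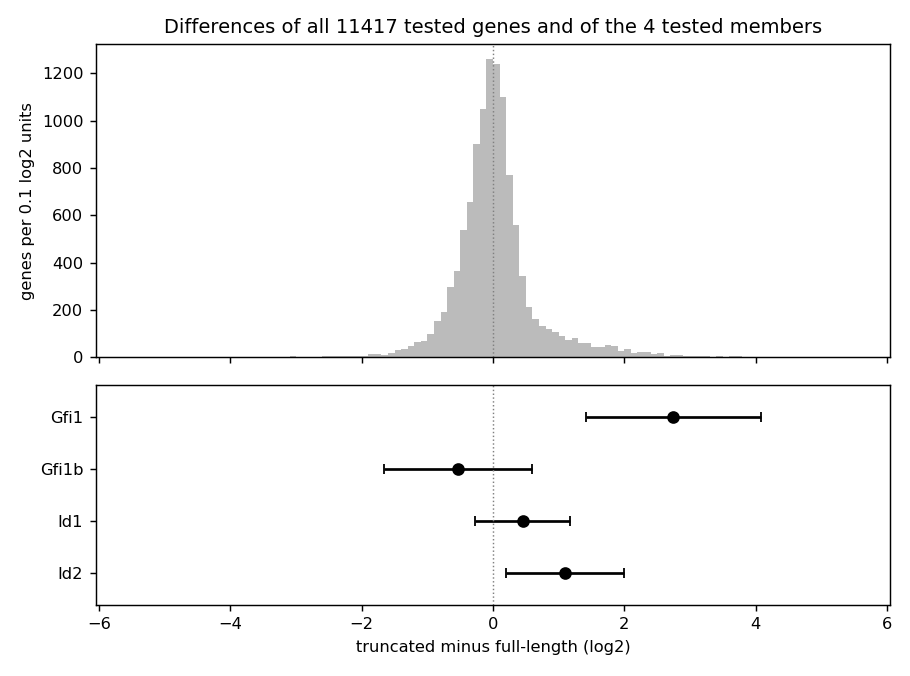
The upper panel gives the number of genes per 0.1 log2 units of difference (truncated minus full-length) over all 11417 tested genes, and the lower panel gives the 4 tested members with 95% intervals from limma. Gfi1 lies in the upper tail at 2.75, while the intervals of Gfi1b and Id1 include 0.

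Among the genes of the GFI repressor complexes, 6 of 18 tested had a higher and 12 a lower value in truncated mice, with a median difference of -0.28. None passed over all genes tested, and the largest differences rested on the full-length arrays numbered 1. Runx1t1, a corepressor that is also the ETO partner of RUNX1 in human leukemia, was at 8.12 ± 0.63 in truncated and 4.96 ± 2.11 in full-length animals, a difference of 3.16 (limma, adjusted p = 0.256) that was -0.21 without the 2 arrays. Its probe set ends in x_at, which can match related sequences. Ajuba, a LIM protein reported to bind GFI1, was at 4.24 ± 0.45 and 7.06 ± 2.32 in truncated and full-length animals, a difference of -2.82 that was 0.15 without them. The BHC80 gene Phf21a differed by 0.76 and Gse1 by -0.95, and the core enzyme gene Kdm1a, named after its value was seen, differed by -0.41. Rcor1 was likewise named afterwards and differed by -0.41.

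Genes held in the literature to be repressed by GFI1 or GFI1B did not share a direction. Of 19 tested, 9 had a higher and 10 a lower value in truncated mice, the median difference was -0.11, and none passed over all genes tested. Those with the highest values against full-length mice were the neutrophil elastase gene Elane (3.41, adjusted p = 0.272 in limma) and Irf8 (2.08), a transcription factor of monocytes. Irf8 lay between 8.28 and 8.95 in truncated and between 5.96 and 6.88 in full-length arrays, and its animal means were 8.52 ± 0.28 and 6.43 ± 0.18 in truncated and full-length mice. The lowest were the cell cycle inhibitor gene Cdkn2b (-2.61) and the T cell and mast cell factor Gata3 (-2.19). Gata3 (limma, adjusted p = 0.0822) lay between 3.83 and 3.94 in truncated arrays, against 5.71 to 6.80 in full-length arrays, and 8.73% of all genes had arrays that did not overlap and a lower value. Cdkn2b was high in the 2 full-length arrays numbered 1 only, at 7.37 and 7.03, and differed by -0.26 without them. Elane also stands in the primary granule list. Mast cell and basophil genes, a lineage that also expresses Gata3, had 3 of 10 tested members with a higher mean and a median difference of -0.36, with list levels between 8.09 and 8.45 in truncated arrays. In full-length arrays that list split, at 7.16 and 7.19 in the arrays numbered 1 and at 10.18 and 10.21 in arrays 2 and 3.

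The E proteins, which the ID proteins capture, differed among themselves. Tcf4 was at 7.37 ± 0.02 in truncated and 6.22 ± 0.99 in full-length animals, with all truncated arrays higher, as for 10.3% of all genes tested (1.15, limma, adjusted p = 0.384). Tcf3 and Tcf12 had lower means in truncated mice, by -0.56 and -0.48. These 3 genes were named after their values were seen. Of the 13 tested genes of E proteins and their partners, 6 had a higher and 7 a lower value, with a median difference of -0.13, and none passed. The LIM-only gene Lmo4 (2.06) and the basic helix-loop-helix gene Bhlhe40 (1.38) were highest, and the adaptor gene Ldb1 (-0.82) and the Notch target Hes1 (-1.27) were lowest. Without the 2 full-length arrays numbered 1, Bhlhe40 turned to -1.18 and Hes1 to 0.35, and Bhlhe40 was between 8.33 and 8.53 in truncated arrays, against 9.63 and 9.67 in arrays 2 and 3 of full-length animal 2. Lmo4 lay between 8.51 and 8.76 in truncated arrays and between 6.12 and 7.32 in full-length arrays.

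Genes that E proteins drive in lymphoid progenitors had a higher value in truncated mice for 8 of 9 tested, while 9 of the 18 on the array were too dim to be tested. Their median difference was 0.91, and 0.76 without the 2 full-length arrays numbered 1. The chemokine receptor gene Cxcr4 was highest at 7.58 ± 0.25 in truncated and 5.14 ± 0.57 in full-length animals (2.44, limma, adjusted p = 0.0829), followed by the B cell receptor gene Cd79b (1.34). The T cell gene Cd3e (-0.08) and Vpreb3 (0.39) were lowest. None passed over all genes tested, and the B cell marker list had higher means in truncated mice for 5 of 5 tested. Those 5 are of 12 on the array, as the others were too dim to be tested. Blnk, at 4.04 ± 0.11 in full-length animals, was kept by the filter only through the truncated animals. The median difference of the B cell list was 1.23 over the tested genes. Without the filter it was 0.28, with a higher value for 11 of 12. Of the 5 tested B cell genes 3 (Cd79b, Blnk and Cd79a) are also among the 9 tested E protein targets, so the 2 counts are not separate.

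BMP and TGF-beta signalling genes, which act upstream of the Id genes, had a higher value in 13 of 19 tested. Their median difference was 0.39, which was -0.07 without the 2 full-length arrays numbered 1. The receptor gene Tgfbr1 was at 7.75 ± 0.02 in truncated and 5.73 ± 0.65 in full-length animals (2.02, limma, adjusted p = 0.101). The inhibitory SMAD gene Smad7, itself a target of the pathway, was at 7.10 ± 0.70 and 5.62 ± 0.21 in truncated and full-length animals (1.48, limma, adjusted p = 0.193), and for both genes every truncated array lay above every full-length array, which held for 10.3% of all genes tested. The corepressor gene Ski (-0.25) and the BMP signal transducer Smad5 (-0.25) were lowest, and no gene of the list passed over all genes tested.

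**Figure D5:**
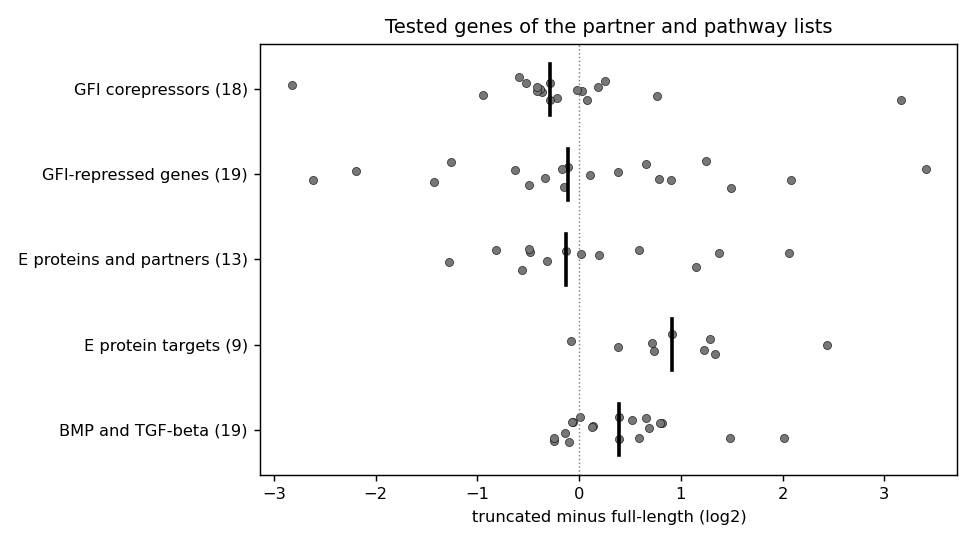
Truncated minus full-length difference (log2) of the tested genes of 5 partner and pathway lists, with 1 point per gene, the median as a black bar and the number of tested genes in brackets; vertical scatter has no meaning. The medians lie between -0.28 for GFI corepressors and 0.91 for E protein targets.

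The genes whose pattern over the 8 arrays was most like that of each member were found by Pearson's r among about 10938 named genes kept by the filter. For Gfi1 these were Laptm4b, Slc25a45 and Sting1 (r = 0.996, 0.996 and 0.995), and 214 genes had r over 0.95. For Gfi1b they were Mta1, Sh3bp1 and Apba3 (0.984, 0.979 and 0.977), for Id1 Svip, Ece2 and Cd200r3 (0.995, 0.990 and 0.989), and for Id2 Ptpn22, Car8 and Rgs2 (0.991, 0.990 and 0.989). For the dim Id3 they were Usp53, Ammecr1 and Nbr1 (0.984, 0.980 and 0.976). Among the members themselves Gfi1 and Id2 had r = 0.883, and Gfi1b had r = -0.614 with Gfi1 and -0.848 with Id2. The 8 arrays come from 4 animals and share the split into 2 sets, so these values are descriptions.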

How the data were processed

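The deposited table holds log2 values of 45101 probe sets on 8 arrays. The authors made them with RMA, per the submitters' processing notes, without a version. The log2 scale was inferred from the values. RMA corrects background, equalises the arrays' distributions and combines the probes of a set, which shrinks differences between dim genes. Precision is limited by the number of animals, which was 2 per genotype.

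Gene symbols came from the platform annotation: 34945 probe sets had 1 gene symbol, 932 several and 9160 none, beside 64 control probe sets. Only the first kind was used, and all 5 members were found in the GRCm38.p6 gene table. Probe sets ending in a_at read several transcripts of a gene.

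Arrays of an animal were averaged. Of several probe sets for a gene the brightest was used. A gene was tested if 2 or more of the 4 animal means exceeded 4.75 (the median of the whole table), which held for 11417 genes. Genotypes were compared with limma 3.58.1 (lmFit, eBayes; R 4.3.3), which had 2 residual and 3.24 prior degrees of freedom, with Benjamini-Hochberg adjustment over all genes, at a threshold of 0.05. Differences are truncated minus full-length, and errors are the SD over 2 animals. The fit was run on simulated data with independent normal values for 4 animals. The only check was that a large added change was recovered on average. The simulation had no split of the arrays into 2 sets, so it does not show how the fit behaves with that split.

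Arrays of the same animal and array number deviated together across genotypes (correlations of 0.301, 0.144, 0.230 and 0.214 over the genes kept), so fits with these numbers as a block were run as well. The labels do not say whether a number marks a shared batch.

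The members, the 15 gene lists and the alternatives were chosen with earlier results of these data known, so lists are described by counts and medians without a test. Of their 250 genes 231 were on the array. The text names the members, for each partner list the 2 tested genes with the highest and the 2 with the lowest difference, and the 3 genes most like each member. Others are said to be named after their values were seen.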

Additional observations from a re-analysis of the deposited data

How the results depend on the processing

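The direction of Gfi1, Gfi1b, Id1 and Id2 was the same in all alternatives run for them, of which Gfi1, Gfi1b and Id1 had 23 each and Id2 had 24. The differences ranged from 1.43 to 3.52 for Gfi1, from -1.06 to -0.01 for Gfi1b, from 0.17 to 0.92 for Id1 and from 0.34 to 1.46 for Id2, and the adjusted p in limma ranged from 1.66e-10 to 0.501 for Gfi1 and from 0.000112 to 0.791 for Id2. Id3 turned in 2 of 21 alternatives, at 0.19 without the 2 full-length arrays numbered 1 and 0.28 in arrays 2 and 3 of animal 2 only. The cause was not tested. On the arrays numbered 1, without the filter, Id3 had an adjusted p of 0.0274 in limma. Over the 11417 genes that fit called 26.4%, as these arrays were alike. Id3 was above 4.75 only in the array of full-length animal 1, so this p-value is a description only. The number of members called, 0 as reported, was 3 with the replicate block of animal and array number on 8 arrays and 2 with 1 array per animal. It lay between 0 and 1 when an animal or array was left out, and was 0 under the other alternatives, which were the mean over probe sets, every probe set, no filter, a trend with a robust prior, median centring, the animal as a random block, the animal number as a block and the fit without the 2 full-length arrays numbered 1. An arm with 1 animal was assumed to vary like the other. Fits that left samples out kept the same 11417 genes, and Id3 was fitted without the filter. Using arrays 2 and 3 of animal 2 only, leaving them out in truncated mice and averaging them first were chosen after seeing the data. Of 30 list medians recomputed, 8 turned. Without the 2 full-length arrays the medians were -0.065 for BMP and TGF-beta genes, 0.24 for endothelial and stromal, 0.46 for erythroid, 0.23 for GFI-repressed and -0.30 for megakaryocyte genes. Without the filter they were 0.0064 for E proteins and partners, 0.060 for endothelial and stromal and 0.063 for GFI-repressed genes. The number of all genes called, 0 as reported (1610 at an unadjusted p under 0.05), was 3013 with 1 array per animal, 945 with the replicate block on 8 arrays, 657 without full-length animal 2, 423 and 329 without its array 3 or 2, 264 higher and 81 lower with the animal as a random block, 176 and 24 with the animal number as a block and 2 and 1 with a trend and robust prior. Signal near the array median limits Id3, the dim Id2 probe set and Gfi1 in full-length mice.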
